A study of Bos taurus with 3 samples.

Results

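The genes described here are 8 members of the phosphoinositide 3-kinase (PI3K) and AKT families, out of the 9154 bovine genes that had a tag in at least 1 library. They were picked by their symbols, with earlier results of these data known but by a rule that uses no measured value: the kinases AKT1 and AKT2, the PI3K regulatory subunits PIK3R1, PIK3R2 and PIK3R3, the PI3K catalytic subunits PIK3CA and PIK3CG, and the PI3K inhibitor PIK3IP1. All 8 genes were listed for the −35 d library, 6 for the −7 d library and 7 for the +3 d library. Only AKT1, AKT2, PIK3R1, PIK3R2 and PIK3IP1 had a mean of at least 5 TPM, where TPM is the count of a gene divided by the clean tags of its library and scaled to 1000000 tags.

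Mammary biopsies were taken from 18 Holstein cows of the second parity. A group of 6 cows was sampled in the dry gland about 35 days before parturition (−35 d), another 6 about 7 days before parturition (−7 d, stage I of lactogenesis), and the last 6 on day 3 after parturition (+3 d, stage II). The tissue of each group was pooled for RNA isolation, so each time point was 1 library and the spread among cows could not be measured. All tests below therefore compare libraries, not conditions, and intervals cover counting error only. PCR copies of 1 molecule are counted as separate tags, so the intervals may be too narrow even for that error.

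PI3K is a lipid kinase that is switched on below receptors for insulin and growth factors. In class IA enzymes a catalytic subunit such as PIK3CA is stabilised and held in check by a regulatory subunit, and the lipid it makes at the membrane recruits AKT, which is then phosphorylated. AKT acts on mTOR complex 1, a main control of translation, and on proteins that govern glucose use and cell survival. In the mammary gland AKT1 is known from work in mice for its part in epithelial survival and in the metabolic switch to milk synthesis. These activities are set largely by phosphorylation, which tag counts do not measure.

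Clean tags, those left after quality filters, numbered 5914422 in the −35 d library, 5593237 in the −7 d library and 5845821 in the +3 d library. The 5 genes that each took over 1% of a library, 4 caseins and the whey protein gene PAEP, together held 0.348%, 4.13% and 22.6% of the clean tags in this order, which goes with the labels of a gland coming into milk. For all genes that averaged 5 TPM or more, the log2 ratio had a median of −0.16 in stage I (−7 d compared with −35 d), −0.34 in stage II (+3 d compared with −7 d) and −0.52 over the whole span (+3 d compared with −35 d). TMM scaling, which centres most genes near 0, raised these ratios by 0.19, 0.31 and 0.50. Ratios below are relative to the clean tag totals, and the values after TMM scaling stand beside them for the genes named, where a call or a direction changes.

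AKT1 fell in stage I while AKT2 did not pass the test in any comparison. In the order of the time points AKT1 had 130, 57 and 57 tags, which are 22.0, 10.2 and 9.75 TPM with exact 95% Poisson intervals of 18.4 to 26.1, 7.72 to 13.2 and 7.38 to 12.6 TPM. The −35 d library stood above both later ones, whose intervals overlapped almost fully. The log2 ratio of AKT1 was −1.11 in stage I (95% interval −1.58 to −0.65, a 2.16-fold lower level), and the Audic-Claverie exact test, which asks whether the tag counts of 2 libraries differ beyond Poisson counting error, gave a false discovery rate (FDR) of 3.9e-06. A gene was called at an FDR of at most 0.001 and at least a 2-fold difference. AKT1 was also called over the whole span (log2 ratio −1.17, −1.65 to −0.71, FDR 5.3e-07). Neither call held after TMM scaling, where the log2 ratio was −0.92 in stage I (FDR 0.000206) and −0.67 over the whole span (FDR 0.00870). In stage II its log2 ratio was −0.06 (−0.62 to 0.49), and 0.24 after TMM scaling, with no call under either.

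AKT2, the isoform best known for insulin-stimulated glucose uptake, had 143, 163 and 154 tags in the order of the time points. These are 24.2 TPM (20.4 to 28.5), 29.1 TPM (24.8 to 34.0) and 26.3 TPM (22.3 to 30.8), and the 3 intervals overlapped. Its log2 ratio was 0.27 in stage I (−0.06 to 0.60, FDR 0.191), −0.15 in stage II (−0.47 to 0.18, FDR 0.477; 0.16 after TMM scaling) and 0.12 over the whole span (−0.21 to 0.46, FDR 0.546). All 3 intervals lay within a 2-fold difference. After TMM scaling the ratio over the whole span was 0.62 (0.28 to 0.96, FDR 0.000845), still below a 2-fold difference. A ratio lower than that of AKT2 was found over the whole span for 81.8% of the genes that averaged 5 TPM or more, against 16.1% for AKT1.

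**Figure D1:**
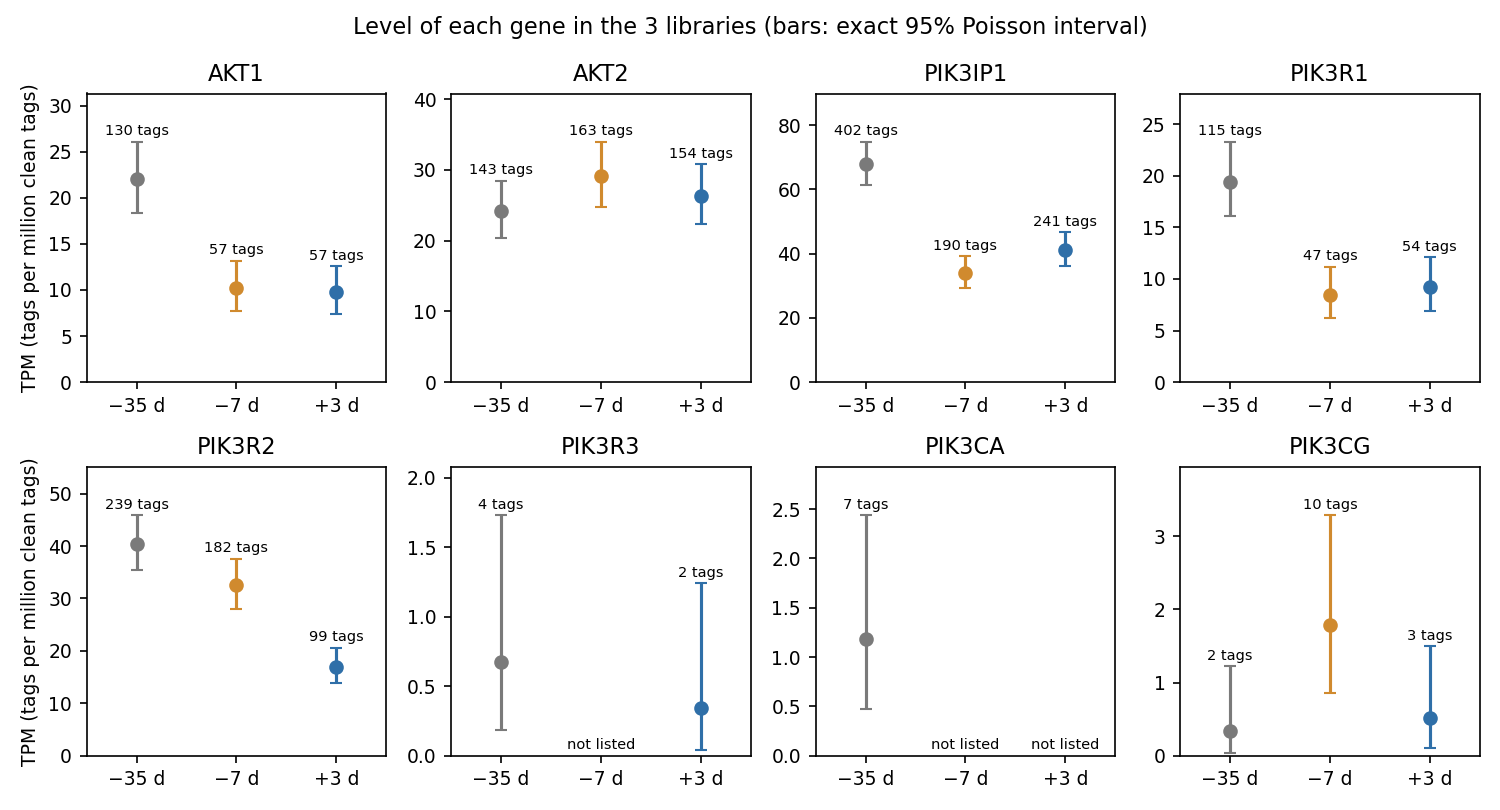
Level of each PI3K and AKT family gene in TPM (y axis, a separate scale from 0 in each panel) in the −35 d, −7 d and +3 d libraries (x axis); points are single libraries, bars are exact 95% Poisson intervals, the numbers are tags, and libraries without the gene are marked as not listed. AKT1, PIK3R1 and PIK3IP1 were highest at −35 d with intervals clear of the later libraries, PIK3R2 was lowest at +3 d, and PIK3R3, PIK3CA and PIK3CG rested on at most 10 tags.

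Because both AKT genes were counted in the same library, the share of AKT1 among their tags does not depend on how libraries are scaled. Tag counts were not divided by transcript length, as tags come from a restriction site near the 3′ end, and how well each gene's site is captured is unknown, so a share is read between libraries and not as a ratio of molecules. AKT1 made up 47.6% of 273 tags at −35 d (95% Wilson interval 41.8% to 53.5%), 25.9% of 220 tags at −7 d (20.6% to 32.1%) and 27.0% of 211 tags at +3 d (21.5% to 33.4%). The pair had near equal counts at −35 d, and AKT2 held most of the tags in both later libraries. The share differed by −21.7 percentage points in stage I (95% Newcombe interval −29.7 to −13.2, 2-sided Fisher's exact test p = 7.2e-07, 6.5e-06 after Benjamini-Hochberg adjustment over the 9 share comparisons made). In stage II the difference was 1.11 points (−7.19 to 9.41, exact p = 0.828, adjusted 0.931), and over the whole span it was −20.6 points (−28.7 to −12.0, exact p = 3.8e-06, adjusted 1.7e-05). The summed level of AKT1 and AKT2 was 46.2 TPM at −35 d, 39.3 TPM at −7 d and 36.1 TPM at +3 d. The log2 ratio of the sum was −0.35 over the whole span (−0.62 to −0.09), and 0.14 (−0.12 to 0.41) after TMM scaling, so its direction depended on the scaling while the share of AKT1 did not.

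The class IA regulatory subunits bind phosphorylated receptors and adaptors through their SH2 domains and bring the catalytic subunit to the membrane. PIK3R1, which encodes the p85 alpha subunit, had 115, 47 and 54 tags, or 19.4 TPM (16.1 to 23.3), 8.40 TPM (6.17 to 11.2) and 9.24 TPM (6.94 to 12.1). Its pattern was that of AKT1, with 1 high library at −35 d and 2 lower ones that overlapped. PIK3R1 fell in stage I by 1.21 on the log2 scale (−1.73 to −0.71, Audic-Claverie FDR 3.2e-06), and it was the only member still called after TMM scaling (−1.02, FDR 0.000138). Its log2 ratio was 0.14 in stage II (−0.45 to 0.73, FDR 0.732). Between −35 d and +3 d it was called at −1.07 (−1.57 to −0.60, FDR 1.3e-05), and not after TMM scaling (−0.58, FDR 0.0374).

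PIK3R2, the p85 beta subunit, had 239, 182 and 99 tags, or 40.4 TPM (35.4 to 45.9), 32.5 TPM (28.0 to 37.6) and 16.9 TPM (13.8 to 20.6). The larger step was between −7 d and +3 d, where the intervals were far apart, while those of −35 d and −7 d overlapped. In stage I the log2 ratio was −0.31 (−0.60 to −0.03, FDR 0.0659). In stage II it was −0.94 (−1.31 to −0.58): the FDR of 5.4e-07 passed, but the difference of 1.92-fold missed the 2-fold threshold. From −35 d to +3 d PIK3R2 fell by 1.25 on the log2 scale (−1.61 to −0.91, FDR 2.4e-13), and the ratio after TMM scaling was −0.76 (FDR 3.5e-05), which is no call. PIK3R3, the p55 gamma subunit, had 4 tags at −35 d, was not listed at −7 d and had 2 tags at +3 d. A gene that was not listed was tested as 0 tags, but it may have had tags, since the tables start at 2 tags and the summary of each library counts more genes than are listed. A difference in PIK3R3 was not detectable with so few tags, and its log2 ratio over the whole span had an interval of −4.45 to 1.82.

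**Figure D2:**
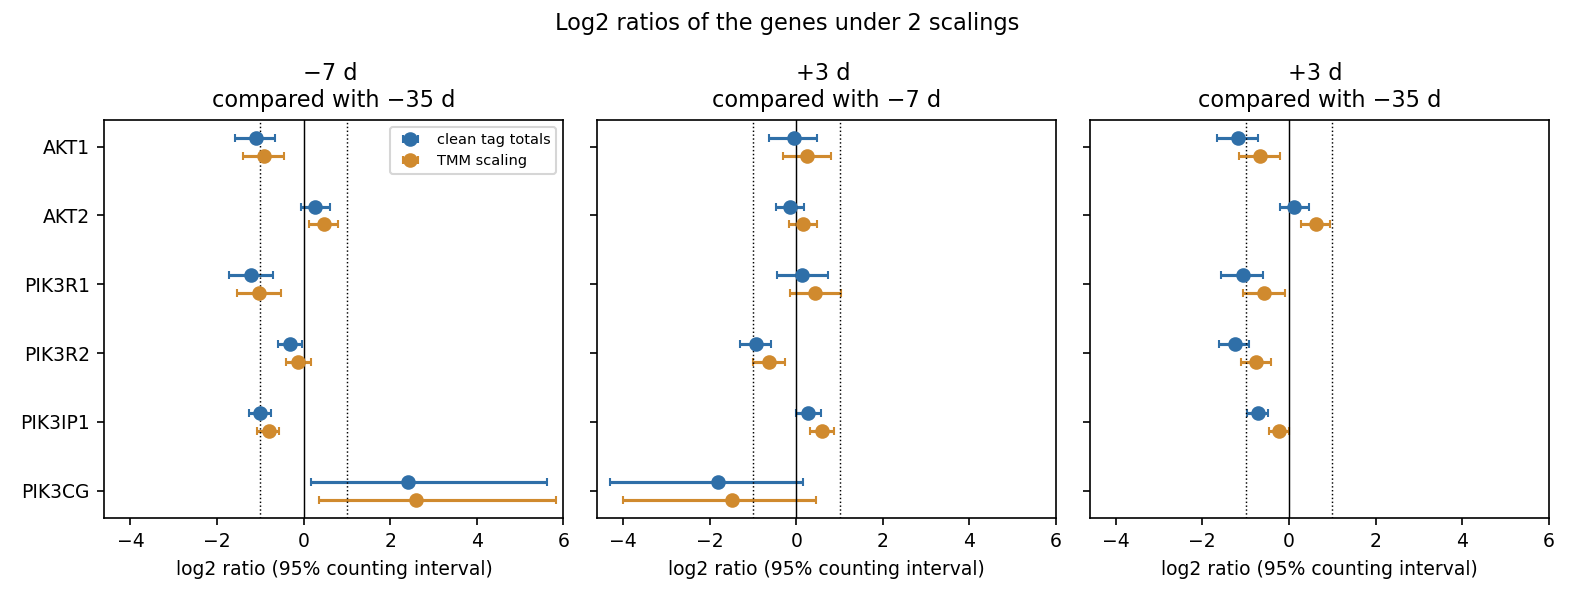
Log2 ratio of the later over the earlier library (x axis) for 6 genes (y axis) in the 3 comparisons, relative to clean tag totals (blue) and after TMM scaling (orange); bars are exact 95% counting intervals, dotted lines mark 2-fold, and the ratio of PIK3CG over the whole span is left out because both libraries had at most 3 tags. In stage I the intervals of AKT1, PIK3R1 and PIK3IP1 lay below 0 under both scalings, and in stage II that of PIK3R2 did.

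PIK3R1 and PIK3R2 had their larger differences in different stages. PIK3R1 held 32.1% of the 358 tags of the class IA regulatory subunits at −35 d (27.5% to 37.1%), 20.5% of 229 at −7 d (15.8% to 26.2%, with PIK3R3 taken as 0) and 34.8% of 155 at +3 d (27.8% to 42.6%). The share was lowest at −7 d, and the intervals of the other two libraries overlapped. It differed by −11.6 percentage points in stage I (−18.5 to −4.26, exact p = 0.00241, adjusted 0.00433) and by 14.3 points in stage II (5.25 to 23.4, exact p = 0.00212, adjusted 0.00433). Over the whole span the difference was 2.72 points (−5.93 to 11.8, exact p = 0.609, adjusted 0.783). The summed level of the 3 subunits was 60.5 TPM at −35 d, 40.9 TPM at −7 d and 26.5 TPM at +3 d. Its log2 ratio was −0.56 in stage I (−0.81 to −0.32) and −0.63 in stage II (−0.93 to −0.33), and after TMM scaling −0.37 (−0.62 to −0.13) and −0.32 (−0.62 to −0.02), so the sum was lower at each later time point under both scalings.

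**Figure D3:**
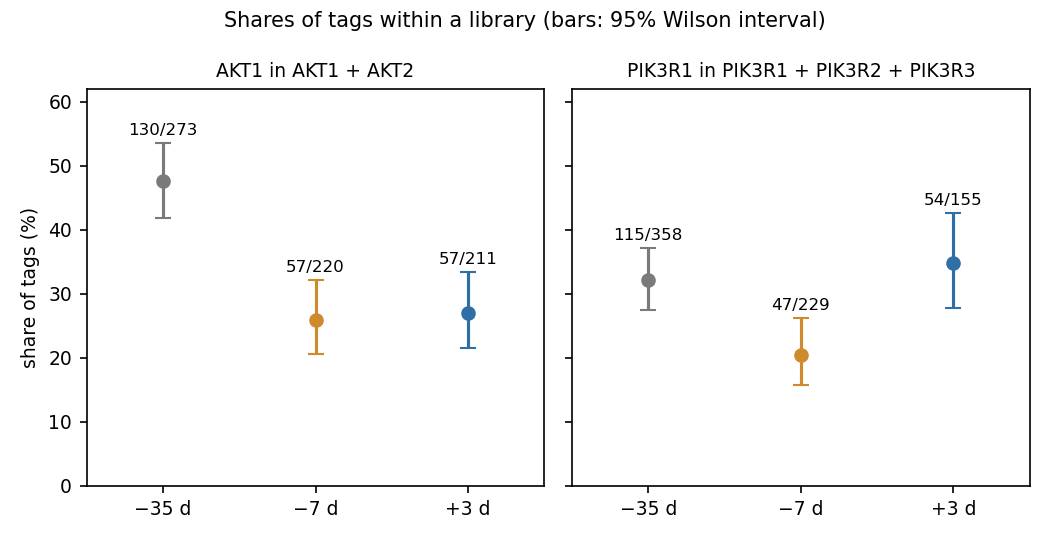
Share of AKT1 in the tags of AKT1 and AKT2 (left) and of PIK3R1 in the tags of PIK3R1, PIK3R2 and PIK3R3 (right), in percent (y axis), in each library (x axis); bars are 95% Wilson intervals and the fractions are tags. The AKT1 share was 47.6% at −35 d and 25.9% and 27.0% later, whereas the PIK3R1 share was lower at −7 d only.

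Few tags were found on the catalytic subunits. PIK3CA, which encodes the widely expressed p110 alpha, had 7 tags at −35 d (1.18 TPM, 0.476 to 2.44) and was not listed at −7 d or +3 d. No fold and no upper limit are given for the libraries in which it was not listed. Taken as 0 tags there, its Audic-Claverie FDR was 0.0279 in stage I and 0.0178 over the whole span, short of the threshold. PIK3CG, which encodes the p110 gamma found mainly in leukocytes, had 2, 10 and 3 tags, or 0.338, 1.79 and 0.513 TPM. It was highest at −7 d, with a log2 ratio of 2.40 in stage I (0.17 to 5.63, FDR 0.0451) and −1.80 in stage II (−4.30 to 0.16, FDR 0.0966), and was not called. PIK3CA held 7 of the 9 tags of both at −35 d (77.8%, 45.3% to 93.7%). Tests of this share between libraries are among the 9 share comparisons made. They are not read here, because PIK3CA was not listed in the later libraries.

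PIK3IP1, a membrane protein that binds the catalytic subunit and lowers PI3K activity, had the most tags of the 8 genes in each library. Its counts were 402, 190 and 241 tags, or 68.0 TPM (61.5 to 74.9), 34.0 TPM (29.3 to 39.2) and 41.2 TPM (36.2 to 46.8). The −35 d library stood clear of the other two, which overlapped. PIK3IP1 fell in stage I with a log2 ratio of −1.0006 (−1.26 to −0.75, FDR 7.8e-15), just past the 2-fold threshold. The call was lost when 0.5 tags were added to each count and after TMM scaling (−0.81, FDR 7.1e-10). In stage II the log2 ratio was 0.28 (FDR 0.0938), and 0.59 after TMM scaling (0.31 to 0.87, FDR 0.000129). Between −35 d and +3 d it was −0.72 (−0.96 to −0.49, FDR 2.9e-09), a 1.65-fold difference. After TMM scaling this ratio was −0.22 (−0.46 to 0.01, FDR 0.117).

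Counted together, 3 of the 8 genes were called lower in stage I (AKT1, PIK3R1 and PIK3IP1) and none higher, where 6.45% of all 8967 genes tested were called lower and 2.62% higher. In stage II none of the 7 genes tested was called, where 10.4% of all genes were called lower and 3.12% higher. PIK3IP1 and PIK3CG had unadjusted Audic-Claverie p-values under 0.05 there besides PIK3R2 (0.0458 and 0.0474), as did 4350 of all 8784 genes tested. From −35 d to +3 d, 3 of 8 were called lower (AKT1, PIK3R1 and PIK3R2), where 16.3% of all genes were called lower and 2.33% higher. After TMM scaling, 1 member (PIK3R1) was called lower in stage I and none higher, where 8.12% of all genes were called, 3.90% lower and 4.22% higher. None of the 8 genes was called after TMM scaling in stage II, where 10.8% of all genes were called (4.90% lower, 5.87% higher), or over the whole span, where 11.2% were (4.94% lower, 6.23% higher). To allow for a spread between pools, the exact test of edgeR was run with a biological coefficient of variation set to 0.2, and it called no member. The lowest FDR of a member in this test was 0.159 in stage I (PIK3R1), 0.219 in stage II (PIK3R2) and 0.0498 over the whole span (PIK3R2). Of all genes it called 54, 160 and 156 in these comparisons, relative to the clean tag totals.

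Summed tags of marker gene lists for 6 cell types were set beside these genes. All lists had their lowest or an intermediate sum at −7 d, and no listed marker was at 0 in any library. The 12 of 15 leukocyte markers listed summed to 484 TPM at −35 d, 317 at −7 d and 474 at +3 d, with 3 called lower in stage I and 2 called higher in stage II. PIK3CG had the reverse order, but on 2, 10 and 3 tags and with no call. These are too few tags to set against the leukocyte sum. The 7 of 10 luminal epithelial markers summed to 1522, 1099 and 836 TPM, with 2 called lower in stage I and 1 in stage II. The log2 ratio of this sum was −0.47 in stage I and −0.39 in stage II. The medians of all genes that averaged 5 TPM or more were −0.16 and −0.34, and PIK3R2 had −0.31 and −0.94. Marker sums are relative to the clean tag totals and were not recomputed after TMM scaling. The fractions of all genes called are those given above for the members. The remaining lists were lowest at −7 d: the 7 of 7 myoepithelial and smooth muscle markers at 862, 510 and 958 TPM, the 6 of 7 fibroblast markers at 7834, 5823 and 8866 TPM, the 5 of 6 endothelial markers at 77.1, 53.5 and 86.4 TPM, and the 5 of 5 adipocyte markers at 208, 137 and 281 TPM. Called markers of these lists in stage I, all lower, were 2 myoepithelial, 1 fibroblast, 1 adipocyte and 0 endothelial, and in stage II, all higher, 2 myoepithelial and 1 in each of the others. In stage I the log2 ratios of the 6 sums ranged from −0.76 to −0.43, beside −1.11 for AKT1, −1.21 for PIK3R1 and −1.0006 for PIK3IP1. In stage II they ranged from 0.58 to 1.04 except for the luminal list at −0.39, beside −0.06 for AKT1, 0.14 for PIK3R1 and 0.28 for PIK3IP1. The part of cell make-up in these results was not tested, and fewer cells of a type and less RNA per cell cannot be told apart in bulk tissue.

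Around the 8 genes, a list of 91 further genes of the PI3K, AKT and mTOR pathway was followed, of which 51 are in the tables analysed here. In stage I, 2 of the 50 genes tested were called lower and none higher, where 9.07% of all genes were called in either direction. In stage II, 2 of 50 were called lower and none higher (13.5% of all genes were called), and over the whole span 10 of 50 were called lower and none higher (18.6% of all genes were called). The median log2 ratio of the 35 list genes that averaged 5 TPM or more was −0.34, −0.24 and −0.52, beside −0.16, −0.34 and −0.52 for all such genes. After TMM scaling the counts out of 50 were 1 higher and 2 lower in stage I and 2 higher and 1 lower in stage II. Over the whole span 1 was called in each direction. Of all genes, 8.12%, 10.8% and 11.2% were called in these comparisons after TMM scaling. PRKCZ, an atypical protein kinase C (1.07), and FOXO4, a transcription factor that AKT inactivates (1.08), were the pair called higher in stage II after TMM scaling. This pair was picked out with its values in view. The edgeR exact test with the assumed coefficient of 0.2 called none of the list genes in any comparison. It called few of all genes, 54 in stage I, 160 in stage II and 156 over the whole span.

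**Figure D4:**
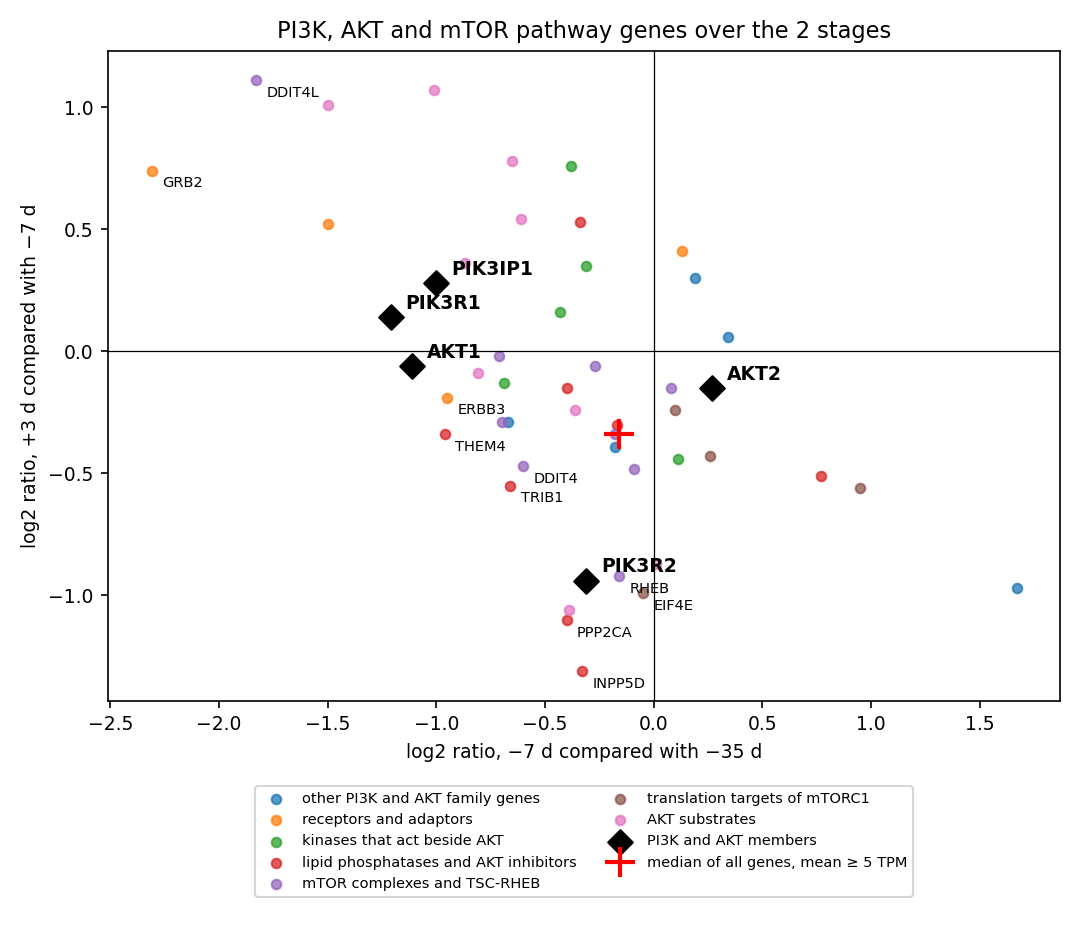
Log2 ratio of stage I (x axis) and stage II (y axis), relative to clean tag totals, for 44 pathway genes coloured by role and 5 PI3K and AKT family genes (black diamonds), each with more than 3 tags in all 3 libraries; the red cross is the median of all genes that averaged 5 TPM or more, and small labels name genes called in at least 1 comparison. AKT1, PIK3R1 and PIK3IP1 lay to the left, PIK3R2 lay low beside RHEB and EIF4E, and AKT2 lay to the right of the cross.

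Upstream of PI3K, the adaptor GRB2, which links receptors to RAS and to GAB proteins, had 42, 8 and 14 tags. It fell in stage I by 2.31 on the log2 scale (−3.61 to −1.20, FDR 1.2e-05) and was lower over the whole span (−1.57, FDR 0.000565, with no call after TMM scaling). ERBB3, a receptor that recruits p85 subunits directly, had 821, 401 and 368 tags, and was called lower over the whole span (−1.14, FDR 8.8e-38; −0.64 after TMM scaling, with no call) but not in stage I (−0.95). GAB1, an adaptor that binds p85, had 216, 223 and 310 tags, and was called over the whole span only after TMM scaling (1.04). It was named after its values were seen.

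Among the genes that limit the pathway, INPP5D (SHIP1, a lipid phosphatase known from blood cells) had 316, 238 and 100 tags. It fell in stage II by 1.31 (−1.67 to −0.97, FDR 1.4e-14), and by 1.01 after TMM scaling. The catalytic subunit PPP2CA of protein phosphatase 2A, which removes phosphate from AKT, had 761, 546 and 267 tags and fell in stage II by 1.10 (−1.31 to −0.88, FDR 1.7e-24). Both were also lower over the whole span (−1.64 and −1.49). After TMM scaling INPP5D was still called over the whole span (−1.15), while PPP2CA was called neither in stage II (−0.79) nor over the whole span, where it fell just short of 2-fold. TRIB1, a pseudokinase related to the AKT-binding TRIB3, and THEM4, which binds AKT, were called lower only over the whole span, with log2 ratios of −1.20 (FDR 3.4e-09) and −1.30 (FDR 7.2e-05), and were not called after TMM scaling (−0.70 and −0.80). Inhibitors and activators were thus both among the genes called lower.

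Downstream, DDIT4L, an inhibitor of mTOR complex 1, had 45, 12 and 27 tags and fell in stage I by 1.83 (−2.88 to −0.88, FDR 0.000117). Its relative DDIT4 had 601, 374 and 282 tags and was lower over the whole span (−1.07, FDR 2.1e-25), as was RHEB, the GTPase that activates mTOR complex 1, with 185, 157 and 87 tags (−1.07, FDR 2.1e-08). RPS6KB1, the S6 kinase, had 27, 7 and 3 tags, a log2 ratio over the whole span of −3.15 with a wide interval (−5.52 to −1.45, FDR 2.1e-05). EIF4E, the cap-binding factor, had 510, 467 and 246 tags and was lower over the whole span (−1.04, FDR 1.9e-20). None of these whole-span calls held after TMM scaling, where the log2 ratio was −0.58 for DDIT4, −0.57 for RHEB, −0.54 for EIF4E and −2.66 for RPS6KB1 (FDR 0.00104). EIF4EBP1, which holds EIF4E back until mTOR phosphorylates it, had 319, 582 and 413 tags. Its log2 ratio in stage I was 0.95 (0.75 to 1.15), and 1.14 after TMM scaling, where it was called higher. EIF4EBP1 was named after its values were seen.

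The subunits of the class III enzyme, which works in endosome traffic and autophagy, were not called in any comparison. The regulatory subunit PIK3R4 had 531, 635 and 693 tags (89.8, 114 and 119 TPM), with log2 ratios of 0.34 in stage I (0.17 to 0.51, FDR 0.000318) and 0.40 over the whole span (0.24 to 0.57, FDR 5.6e-06), both under 2-fold. After TMM scaling the ratios of PIK3R4 were 0.53 in stage I and 0.90 over the whole span (0.73 to 1.06, FDR 4.5e-26), again under 2-fold. The catalytic subunit PIK3C3 had 143, 119 and 95 tags, with a log2 ratio of −0.57 over the whole span (−0.96 to −0.19, FDR 0.00613), and −0.08 after TMM scaling. Both were named after their values were seen.

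The genes closest in pattern to the called members were found by the Euclidean distance over the log2 ratios of stage I and stage II, with 0.5 tags added, among 5702 genes with at least 100 tags in all. For AKT1 these were LEPROT (705, 315 and 315 tags, distance 0.021), SEPT2 (0.031) and MRPS33 (0.034). For PIK3R1 they were BRD2 (95, 40 and 46 tags, distance 0.044), SCGB2A2 (0.047) and UGDH (0.050). HNRNPF (2065, 1565 and 851 tags, distance 0.008), RPL23 (0.013) and ACOT4 (0.015) lay closest to PIK3R2. MGC151567 (111, 52 and 67 tags, distance 0.022), MLPH (0.029) and KIAA1715 (0.039) lay closest to PIK3IP1. Of the 5702 genes, 19 lay within a distance of 0.1 of AKT1, 12 of PIK3R1, 53 of PIK3R2 and 19 of PIK3IP1. These distances are smaller than the counting error of the members. The stage I log2 ratio of AKT1, for example, had an interval of −1.58 to −0.65. Which genes come out as nearest is therefore not resolved by these counts.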

How the data were processed

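Digital gene expression counts 21-base tags, a CATG site with the 17 bases after it, near the 3′ end of transcripts. The authors removed adaptors, unknown bases, tags of wrong length and tags with 1 copy, allowed 1 mismatch to UMD 3.1 transcripts, and deposited the counts of unambiguous tags per gene and per distinct tag, and TPM values relative to all clean tags. The deposited summary gives tags and genes by mapping class. It counts 209 to 228 more genes per library than the tables list, so a gene taken as 0 may have had tags. The software that mapped and counted the tags is not given in the sources used here.

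Counts were joined by accession and symbols read from the descriptions; 6 of 8 members (not AKT2 and PIK3CG) matched the reference table by accession. For the Audic-Claverie test the smaller tail was multiplied by 2 and adjusted by the Benjamini-Hochberg method over all genes with a tag in either library, with 0 TPM set to 0.01 TPM. Only the Audic-Claverie test was checked on simulated data, which were Poisson counts with planted changes larger than 2-fold. The simulated counts had no spread between pools and no shift in the make-up of the libraries. Alternatives were other scalings (edgeR's TMM, DESeq2's size factors, totals without genes over 1%), an exact test by edgeR with coefficients of variation set to 0.2 and 0.4, inclusive tails, Fisher's exact test, a 3-fold threshold, a mean of at least 5 TPM and 0.5 tags added. Members and lists were chosen with earlier results of these data known. Named genes are the members, list genes called in any comparison and the 3 nearest genes of each called member; others are marked. Tags could not be assigned to sites of a gene here. Tools were Python 3.11.15, scipy 1.17.1, statsmodels 0.14.6, R 4.3.3, edgeR 4.0.16 and DESeq2 1.42.0.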

Additional observations from a re-analysis of the deposited data

How the results depend on the processing

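No paired analysis was possible because each time point was 1 library of pooled cows, and for the same reason no replicate could be left out. Of 177 recomputed ratios of single members, 138 kept their direction and their side of the threshold, 33 lost the call, none gained one, and 6 changed sign, all in stage II and none of them called. The ratio of AKT1 was then 0.24 with TMM scaling, 0.26 with DESeq2's size factors and 0.25 with totals without genes over 1%, and that of AKT2 was 0.16, 0.18 and 0.16. Tails with the observed count and Fisher's exact test changed no call of a member.

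Over all genes, the assumed coefficient of variation of 0.2 left 54 calls in stage I, 160 in stage II and 156 over the whole span, and 0.4 left 3, 8 and 14. A 3-fold threshold left 317, 440 and 659. Over the whole span, 1672 calls became 1004 with TMM scaling, 992 with DESeq2's size factors and 1039 with totals without genes over 1%, and the share of calls that were lower went from 87.5% to 44.2% with TMM scaling (71.1% to 48.1% in stage I, 77.0% to 45.5% in stage II). For the pathway list, both assumed coefficients left 0 calls in each comparison. A mean of at least 5 TPM left the list 0 calls in stage I, against 694 over all genes. A 3-fold threshold left the list 0 in stage II and 2 over the whole span. Over the whole span its 10 calls became 2 with TMM scaling (1 higher and 1 lower), 2 with DESeq2's size factors and 3 without genes over 1%. In stage II its calls were 2 higher and 0 lower with DESeq2's size factors, against 524 higher and 413 lower over all genes. With PIK3R4, PIK3R5 and PIK3R6 in the total, the share of PIK3R1 was 12.7%, 5.35% and 6.24% in the order of the time points, because PIK3R4 has more tags than the class IA subunits together. PIK3CB and PIK3CD were not listed in any library, so adding them to the share of PIK3CA tests nothing. Under the 3 other scalings, the stage I call of PIK3R1 was kept in all, that of AKT1 was kept only without genes over 1%, that of PIK3IP1 was lost in all, and the calls over the whole span were lost in all.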
